A study of Mus musculus with 4 samples.

Results

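Chemokines are small secreted proteins that steer migrating cells, and their receptors are G-protein-coupled receptors on those cells. In the thymus they place developing T cells in turn in the cortex and the medulla. Stromal ligands draw progenitors in, hold immature thymocytes in the cortex and bring selected thymocytes to the medulla, while inflammatory ligands recruit monocytes, neutrophils and effector lymphocytes. The genes described here are all those in a mouse thymus RNA sequencing table whose symbol opens with the name of a CC, CXC, XC or CX3C ligand or receptor followed by a number. They are 38 of the 10598 genes in the table, 27 ligands and 11 receptors, and all 38 passed the filter on low values. Family members named otherwise are not counted among them.

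The study set Camk2g knockout mice (labelled CAMKIIgamma-/-) against wild-type mice of strain C57BL/6J. Knockout mice given N-methyl-N-nitrosourea (MNU), an alkylating mutagen that induces T-cell lymphoma, are called KO-MNU and knockout mice given vehicle KO-vehicle. Wild-type mice given MNU are called WT-MNU and those given vehicle WT-vehicle. MNU was injected once into the peritoneum (75 mg/kg) in mice aged 4 to 5 weeks, and the labelled treatment time, with MNU or vehicle, is 6 months. The design text asks how deleting the kinase alters thymus gene expression with and without the carcinogen. Each group was 1 library, so no difference below has a replicate check or a p-value. The labels do not say whether a library came from 1 animal or from several, how the deletion was made, or whether the thymus sampled held a tumour.

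Values are the authors' normalised counts, whose totals lay between 32911362 and 34836257 per library, and levels are compared only within a gene. A gene was counted as higher or lower when its log2(value + 10) differed by at least 1, which is 2-fold on that scale. A fold printed beside a gene's name is the plain ratio of its deposited values. Camk2g stood at 29.7 in KO-MNU, 489 in KO-vehicle, 3173 in WT-MNU and 2749 in WT-vehicle, so that both knockout libraries were below both wild-type ones and KO-vehicle was above KO-MNU. The libraries expressed thymocyte genes, and the recombinase gene Rag1 stood at 99894 in KO-MNU, 73746 in KO-vehicle, 32664 in WT-MNU and 123683 in WT-vehicle. Of 17 markers of thymic epithelium, 15 were lower in WT-MNU than in WT-vehicle, and 7 of the 17 stood under 10 units in WT-MNU. Among these 7 was Foxn1, the transcription factor of that lineage, listed at 0 in WT-MNU against 821 in WT-vehicle. A feature of KO-vehicle touches several results. Over 42 genes outside the family that were more than 20-fold higher in WT-MNU than in both KO-MNU and WT-vehicle, the KO-vehicle level lay a median of 15.4% of the way (5th to 95th percentile 13.9% to 18.5%) from the mean of KO-MNU and WT-vehicle towards WT-MNU. This distance is given below as the WT-MNU share. Where they differ, KO-vehicle levels with 15.4% of the WT-MNU profile subtracted are set beside the deposited ones. The subtraction includes a rescaling, in which the remainder is divided by 1 minus the subtracted fraction. A gene lower in WT-MNU than in KO-vehicle therefore rises. Among family genes lower in WT-MNU than in WT-vehicle the WT-MNU share varied: it was -63.8% for Ccl11, -1.49% for Ccl25 and 27.2% for Ccr7. For Camk2g, 15.4% of the WT-MNU level is close to the whole deposited KO-vehicle level. The source of the Camk2g RNA in KO-vehicle was not tested.

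With MNU, the wild-type thymus held far less RNA of the ligands and receptors that organise T-cell development and far more of a small set of myeloid-attracting ligands and of Cxcl13. Of the 38 genes, 26 (68.4%) were at least 2-fold lower in WT-MNU than in WT-vehicle, where 14.2% of all 10587 genes tested were, and 7 (18.4%) were higher, where 7.14% of all genes were. The median log2 difference was -2.54 for the family and -0.0052 for all genes. WT-MNU was the lowest of the 4 libraries for 29 of the 38 genes (43.3% of all genes) and the highest for 7 (44.4% of all genes). The 5 genes within 2-fold between the wild-type libraries included Ccl4, Cxcl14, Ccr4 and Cxcr4. In bulk tissue, fewer cells of a type and less RNA per cell cannot be told apart.

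**Figure D1:**
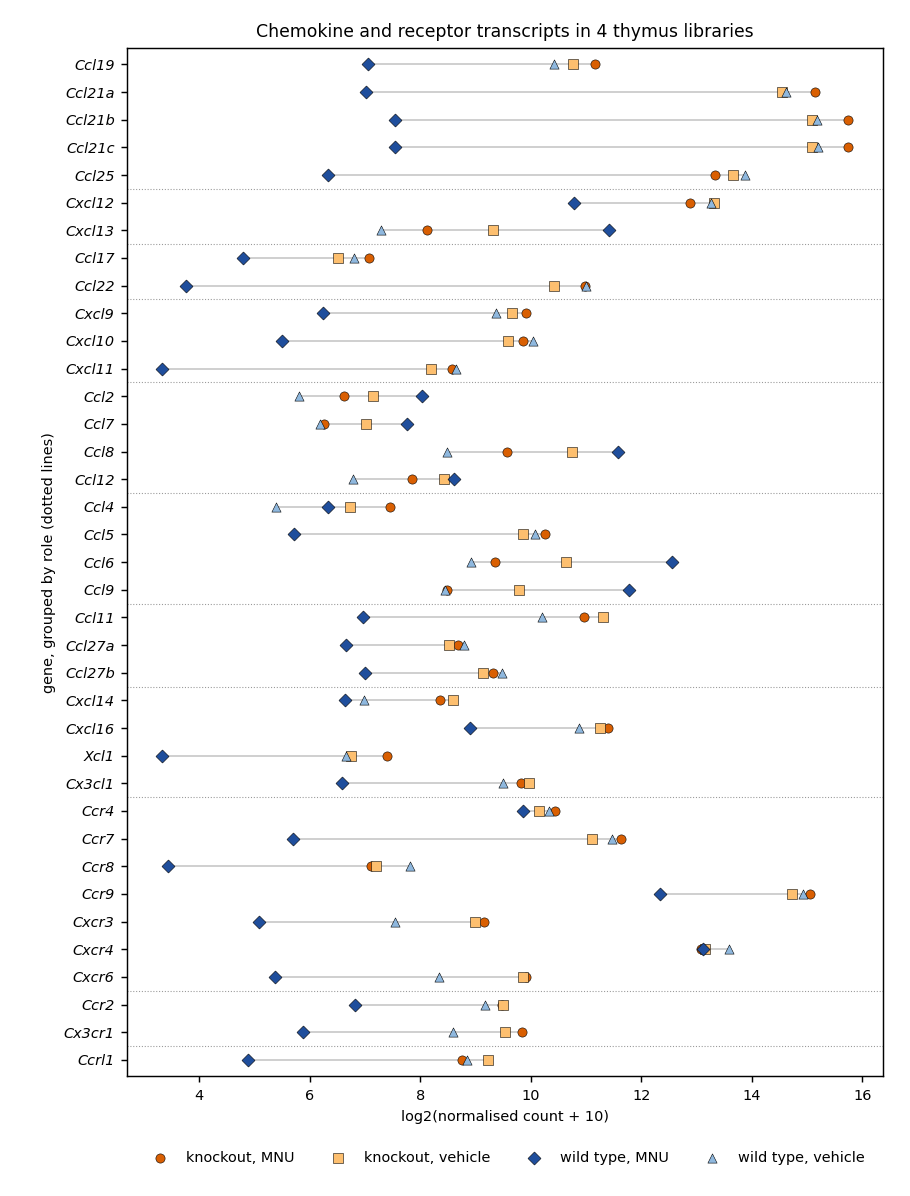
Level of 37 of the 38 genes in the 4 libraries, as log2(normalised count + 10) on the horizontal axis, with genes in rows grouped by role and 1 point per library, without replicates. WT-MNU lies to the left of the other libraries for 28 of those drawn and to the right of them for 7, among them Cxcl13, Ccl8, Ccl6 and Ccl9.

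The ligands that draw thymocytes through Ccr9 and Ccr7 were among the most reduced in WT-MNU. Ccl25, made by thymic epithelium and the ligand of Ccr9, had normalised counts of 10286 in KO-MNU, 12867 in KO-vehicle, 70.5 in WT-MNU and 15071 in WT-vehicle. It was 214-fold lower in WT-MNU than in WT-vehicle, while the other 3 libraries lay within 2-fold of each other. Ccl19, a Ccr7 ligand, had 2269.7 in KO-MNU, 1724 in KO-vehicle, 124 in WT-MNU and 1365 in WT-vehicle. In WT-MNU it was thus 11.1-fold below WT-vehicle, and KO-MNU was the highest library.

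Ccl21a, the epithelial copy of the medullary Ccr7 ligand, had 36075 in KO-MNU, 23988 in KO-vehicle, 119 in WT-MNU and 25002 in WT-vehicle. Ccl21b had 54628 in KO-MNU, 34628 in KO-vehicle, 177 in WT-MNU and 37265 in WT-vehicle, and Ccl21c had 54971 in KO-MNU, 34836 in KO-vehicle, 177 in WT-MNU and 37445 in WT-vehicle. The 3 copies are near identical, so that their reads may be shared and each value is uncertain on its own: Ccl21b and Ccl21c had the same value in WT-MNU and differed by less than 1% elsewhere. All 3 were more than 200-fold lower in WT-MNU than in WT-vehicle, and all 3 were highest in KO-MNU, by 1.58-fold over KO-vehicle for Ccl21b. Their receptor gene Ccr7 had 3172 in KO-MNU, 2195 in KO-vehicle, 41.7 in WT-MNU and 2829 in WT-vehicle, 67.8-fold lower in WT-MNU than in WT-vehicle. Ccr9 had 34108 in KO-MNU, 26944 in KO-vehicle, 5148 in WT-MNU and 31047 in WT-vehicle, and it kept a far larger part of its WT-vehicle level than its ligand Ccl25 did. Ccrl1 (now Ackr4), a scavenger of Ccl19, Ccl21 and Ccl25, had 424 in KO-MNU, 589 in KO-vehicle, 19.4 in WT-MNU and 450.2 in WT-vehicle. It was 23.2-fold lower in WT-MNU than in WT-vehicle.

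Cxcl12, which holds immature thymocytes in the cortex, and its receptor differed from this pattern in size. Cxcl12 had 7549.7 in KO-MNU, 10163 in KO-vehicle, 1755 in WT-MNU and 9839 in WT-vehicle, 5.61-fold lower in WT-MNU than in WT-vehicle. Cxcr4 had 8694 in KO-MNU, 9135 in KO-vehicle, 8911 in WT-MNU and 12324 in WT-vehicle. It was the only receptor besides Ccr4 that was within 2-fold in all 5 comparisons, and WT-vehicle was its highest library.

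The Ccr4 ligands Ccl17 and Ccl22, products of dendritic cells and medullary cells, were lower in WT-MNU than in WT-vehicle while the receptor was within 2-fold. Ccl22 had 2008 in KO-MNU, 1356 in KO-vehicle, 3.61 in WT-MNU and 2049 in WT-vehicle, a 567-fold lower level in WT-MNU than in WT-vehicle. Ccl17 had 125 in KO-MNU, 81.8 in KO-vehicle, 17.5 in WT-MNU and 101 in WT-vehicle. Ccr4, carried by thymocytes entering the medulla and by T-helper and regulatory T cells, had 1371 in KO-MNU, 1128 in KO-vehicle, 916 in WT-MNU and 1281 in WT-vehicle. Its lowest library was WT-MNU, at 0.71-fold the WT-vehicle level. Ccr8, a receptor of regulatory and other T cells, had 129 in KO-MNU, 137 in KO-vehicle, 0.82 in WT-MNU and 215 in WT-vehicle. The WT-MNU value is under 1 unit, near the lower end of what the table records, and both knockout libraries also lay below WT-vehicle.

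The ligands of Cxcr3, induced by interferons, were lower in WT-MNU. Cxcl9 had 952 in KO-MNU, 798 in KO-vehicle, 65.9 in WT-MNU and 651 in WT-vehicle, and Cxcl10 had 917 in KO-MNU, 763 in KO-vehicle, 35.2 in WT-MNU and 1039 in WT-vehicle. Cxcl11 stood at 369.7 in KO-MNU and 281 in KO-vehicle, was listed at 0 in WT-MNU, and stood at 389 in WT-vehicle; C57BL/6 mice carry a frameshift in this gene, so that only its RNA is informative. The other 3 libraries lay within 2-fold of each other for Cxcl9, Cxcl10 and Cxcl11. Their receptor gene Cxcr3, carried by effector T cells and NK cells, had 562 in KO-MNU, 499 in KO-vehicle, 24.04 in WT-MNU and 177 in WT-vehicle. The ligand Cxcl16 had 2697 in KO-MNU, 2444 in KO-vehicle, 468 in WT-MNU and 1857 in WT-vehicle, and its receptor gene Cxcr6 had 957 in KO-MNU, 919 in KO-vehicle, 31.5 in WT-MNU and 312 in WT-vehicle. For Cxcr3 and Cxcr6 both knockout libraries were above WT-vehicle and WT-MNU was far below it.

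The 300-base promoter window of Cxcl10 is shown because it holds the interferon response element that the gene is known for. It is the RefSeq window of build GRCm38.p6 (chr5:92348840-92349139, minus strand), from 250 bases before to 50 bases after the annotated start, and capitals mark the match to the element (ISRE, searched as GAAA, any 2 bases and GAAA again), which begins at position -213.
Cxcl10: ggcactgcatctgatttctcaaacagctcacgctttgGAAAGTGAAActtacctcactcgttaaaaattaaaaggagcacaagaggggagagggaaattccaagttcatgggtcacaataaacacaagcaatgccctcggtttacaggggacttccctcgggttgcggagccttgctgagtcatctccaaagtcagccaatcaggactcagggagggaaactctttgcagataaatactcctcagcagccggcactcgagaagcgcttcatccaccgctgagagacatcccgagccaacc
Promoter windows were at hand for 28 of the 38 genes, with 34 windows in all. Counts below are of genes, whereas the percentages of all windows are per window. The ISRE, searched on both strands, was present in Cxcl10, Ccl19 and Cxcl14, or 3 of the 28, and in 3.44% of all 32851 windows. A GAS element (TTC, any 3 bases and GAA) was present in Ccl17 and Cxcl14 and in 8.3% of all windows, and the MYC-binding E-box CACGTG in 0 of the 28 and 7.15% of all windows. These are matches of letters, and no protein binding was measured.

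Other lymphocyte and dendritic cell ligands and receptors were also lower in WT-MNU. Xcl1, the ligand of Xcr1 that gathers dendritic cells in the medulla, stood at 159 in KO-MNU and 97.7 in KO-vehicle, was listed at 0 in WT-MNU and stood at 91.2 in WT-vehicle. Without Cxcl11 and Xcl1, both listed at 0, the family median in wild type was -2.48. Cx3cl1, the membrane-bound ligand fractalkine, had 899.9 in KO-MNU, 993 in KO-vehicle, 86.3 in WT-MNU and 716 in WT-vehicle, and its receptor gene Cx3cr1, expressed by monocytes, macrophages and NK cells, had 906 in KO-MNU, 729 in KO-vehicle, 49.1 in WT-MNU and 376 in WT-vehicle. Ccl5, a product of T and NK cells, had 1213 in KO-MNU, 917 in KO-vehicle, 42.6 in WT-MNU and 1074 in WT-vehicle. It was 25.2-fold lower in WT-MNU than in WT-vehicle, and the 3 remaining libraries lay within 1.5-fold of each other.

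Ccl27a and Ccl27b, which attract T cells to skin through Ccr10, are near identical, and each value is uncertain on its own because reads may be shared. Ccl27a had 403 in KO-MNU, 357 in KO-vehicle, 91.0 in WT-MNU and 433 in WT-vehicle, and Ccl27b had 627 in KO-MNU, 554 in KO-vehicle, 118 in WT-MNU and 708 in WT-vehicle. Both were lowest in WT-MNU. Ccl11 (eotaxin), which recruits eosinophils, had 1992 in KO-MNU, 2516 in KO-vehicle, 114 in WT-MNU and 1169 in WT-vehicle. WT-MNU was again the lowest library and both knockout libraries lay above WT-vehicle. Cxcl14, a ligand made by epithelium and fibroblasts, had 319.7 in KO-MNU, 378 in KO-vehicle, 89.1 in WT-MNU and 116 in WT-vehicle, so that the wild-type libraries were close to each other and both knockout libraries were higher. The inflammatory receptor gene Ccr2, which brings monocytes into tissue, had 699.7 in KO-MNU, 714 in KO-vehicle, 103 in WT-MNU and 570.2 in WT-vehicle, with WT-MNU again the lowest library.

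The 7 genes that were higher in WT-MNU were all ligands. Cxcl13, which draws B cells and follicular helper T cells through Cxcr5, had 268 in KO-MNU, 626 in KO-vehicle, 2732 in WT-MNU and 147 in WT-vehicle, and was 18.6-fold higher in WT-MNU than in WT-vehicle. Ccl6, a myeloid ligand of Ccr1, had 644 in KO-MNU, 1588 in KO-vehicle, 5984 in WT-MNU and 473 in WT-vehicle, and Ccl9, another Ccr1 ligand, had 349 in KO-MNU, 872 in KO-vehicle, 3482 in WT-MNU and 339 in WT-vehicle. WT-MNU was 12.7-fold and 10.3-fold above WT-vehicle for Ccl6 and Ccl9. Ccl8, a monocyte-attracting ligand that in mice also acts through Ccr8, had 749 in KO-MNU, 1709 in KO-vehicle, 3065 in WT-MNU and 348 in WT-vehicle. It was 8.81-fold higher in WT-MNU than in WT-vehicle, with both knockout libraries between them.

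The remaining higher genes were the monocyte-attracting ligands of Ccr2, with smaller differences. Ccl2 had 88.9 in KO-MNU, 131 in KO-vehicle, 252 in WT-MNU and 45.6 in WT-vehicle. Ccl7 had 66.4 in KO-MNU, 119 in KO-vehicle, 206 in WT-MNU and 62.5 in WT-vehicle, and Ccl12 had 221 in KO-MNU, 333 in KO-vehicle, 379 in WT-MNU and 100.1 in WT-vehicle. In WT-MNU they were 5.53-fold (Ccl2), 3.29-fold (Ccl7) and 3.79-fold (Ccl12) higher than in WT-vehicle, and WT-vehicle was the lowest library for all 3. The receptor gene Ccr2 itself was 5.53-fold lower in WT-MNU than in WT-vehicle. Ccl4, an inflammatory ligand made by macrophages and T cells, had 165 in KO-MNU, 95.6 in KO-vehicle, 70.6 in WT-MNU and 31.7 in WT-vehicle. It was highest in KO-MNU and lowest in WT-vehicle.

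Markers of several cell types moved with these groups of genes. In WT-MNU, 15 of 17 thymic epithelial markers were at least 2-fold lower than in WT-vehicle (summed level 11292 in WT-MNU against 146194 in WT-vehicle), and 7 of the 17 stood under 10 units. All 8 dendritic cell and MHC class II markers were lower (summed level 5121 in WT-MNU against 123079 in WT-vehicle), as were 6 of 8 B cell markers with 1 higher (2115 in WT-MNU against 3454 in WT-vehicle). Of 11 macrophage markers 5 were higher and 0 lower (52393 in WT-MNU against 27108 in WT-vehicle), and of 9 fibroblast markers 5 were higher and 0 lower (59368 in WT-MNU against 20108 in WT-vehicle without Thy1, which thymocytes also express). Of 5 NK cell markers 3 were lower and 1 was higher (2008 in WT-MNU against 2421 in WT-vehicle), and of 5 neutrophil markers 4 were higher (2292 in WT-MNU against 606 in WT-vehicle). Of 11 markers of double-positive thymocytes, the main cell of the cortex, 6 were lower and 1 was higher (160696 in WT-MNU against 365507 in WT-vehicle). Of 9 mature T cell markers 6 were lower and 2 were higher, with nearly level sums (40191 in WT-MNU against 38558 in WT-vehicle). Adipocyte markers were lower for 9 of 10 genes (10451 in WT-MNU against 53838 in WT-vehicle), and 2 of 6 endothelial markers were higher (9288 in WT-MNU against 7642 in WT-vehicle). The part of these cell types in the chemokine differences was not tested.

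Neighbouring genes of the family differed in opposite directions in WT-MNU. In the annotation of GRCm38.p6, used here for gene order only, Ccl2, Ccl7, Ccl11, Ccl12 and Ccl8 follow each other with no other coding gene between them. Within this run Ccl11 was 10.2-fold lower in WT-MNU than in WT-vehicle, while the other 4 genes were higher. Further along chromosome 11, Ccl5, Ccl9 and Ccl6 are likewise adjacent, and there Ccl5 was 25.2-fold lower while Ccl9 and Ccl6 were higher.

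**Figure D2:**
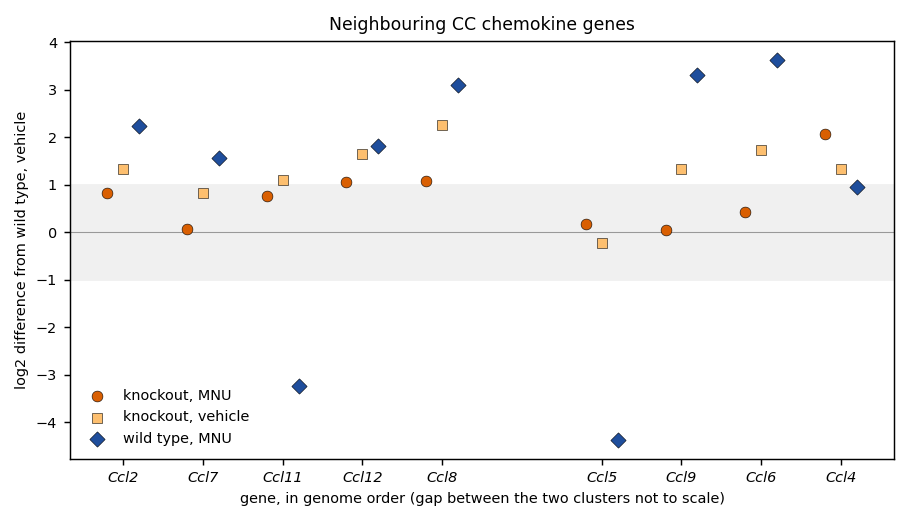
Log2 difference of KO-MNU, KO-vehicle and WT-MNU from WT-vehicle, the library they all share, for 9 CC ligand genes in their order on chromosome 11 (the gap between the clusters is not to scale); the grey band marks differences under 2-fold. In WT-MNU, Ccl11 (-3.25) and Ccl5 (-4.36) lie below the band beside neighbours that lie above it, and Ccl4 (0.95) lies just inside it.

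The promoter windows of Ccl9 and Ccl6 are shown because these adjacent genes had the same order of levels across the libraries and share sequence before their start sites. Both are RefSeq windows of GRCm38.p6 (Ccl9, chr11:83578587-83578886, minus strand; Ccl6, chr11:83593038-83593337, minus strand), and capitals mark bases that lie in a run of at least 10 bases found exactly in the other window.
Ccl9: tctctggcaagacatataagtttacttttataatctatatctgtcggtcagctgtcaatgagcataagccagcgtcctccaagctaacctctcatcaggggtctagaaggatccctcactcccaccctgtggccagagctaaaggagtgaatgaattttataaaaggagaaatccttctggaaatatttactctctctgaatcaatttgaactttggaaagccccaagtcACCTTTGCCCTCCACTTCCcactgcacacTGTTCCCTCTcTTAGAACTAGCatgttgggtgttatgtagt
Ccl6: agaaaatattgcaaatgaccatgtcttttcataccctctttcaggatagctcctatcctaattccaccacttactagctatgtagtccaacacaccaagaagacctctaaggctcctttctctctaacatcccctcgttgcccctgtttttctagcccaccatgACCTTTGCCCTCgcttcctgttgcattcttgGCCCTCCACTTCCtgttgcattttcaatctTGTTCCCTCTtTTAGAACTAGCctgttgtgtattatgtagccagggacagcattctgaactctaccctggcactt
The capitals cover 40 of 300 bases in Ccl9 and 46 of 300 in Ccl6. Of the 378 pairs among the 28 genes with windows, 53 shared any such run, and 2 shared more than 30 bases: this pair and the near-identical Ccl27a and Ccl27b. An NF-kB element (GGG, any 2 bases and TTTCC, on either strand) was present in Ccl9 alone of the 28, and in 1.63% of all windows.

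In the knockout, MNU went with small differences in this family. None of the 38 genes was at least 2-fold higher in KO-MNU than in KO-vehicle (0.331% of all genes were), and 4 (10.5%) were lower (2.95% of all genes). The family median was 0.17, against 0.013 for all genes, and 22 of the 38 genes were above their KO-vehicle level. The 4 lower genes were Ccl9 (2.496-fold lower), Ccl6 (2.47-fold), Cxcl13 (2.34-fold) and Ccl8 (2.28-fold), all of them higher in WT-MNU than in WT-vehicle. Such opposite differences, at least 2-fold in each genotype, were found for 1.87% of all genes. Beside them, 8 of 10 adipocyte markers were lower in KO-MNU than in KO-vehicle, with summed levels of 18606 in KO-MNU against 54563 in KO-vehicle. Of 9 fibroblast markers 3 were lower, and 4 of 5 neutrophil markers were higher (2046 in KO-MNU against 596 in KO-vehicle). Of 8 B cell markers 1 was higher (sums 9039 in KO-MNU against 5391 in KO-vehicle), and of 11 macrophage markers 1 was lower. Of 6 endothelial markers 1 was lower and 1 was higher. The higher one was Glycam1, at 530 in KO-MNU against 6.48 in KO-vehicle. Their part was not tested.

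These 4 differences depend on how KO-vehicle is read. The WT-MNU share of KO-vehicle was 16.6% for Cxcl13, 16.8% for Ccl9 and 19.0% for Ccl6, close to the range of the 42 genes outside the family. It was 34.3% for Ccl2, 38.6% for Ccl7, 46.1% for Ccl8 and 79.0% for Ccl12, the 4 neighbouring monocyte-attracting ligands, all above that range. After subtraction of the share, 0 of the 38 genes were lower in KO-MNU than in KO-vehicle at 2-fold. The KO-vehicle level of Cxcl13 was then 243, that of Ccl9 398 and that of Ccl6 789. Ccl8 remained at 1463 in KO-vehicle, 1.95-fold above KO-MNU.

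**Figure D3:**
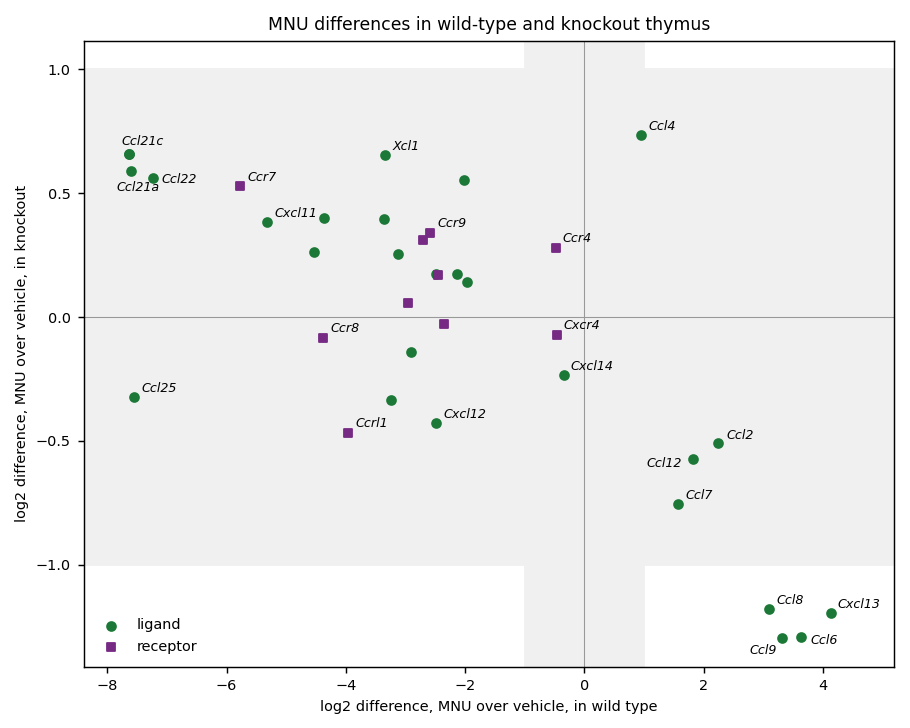
Log2 difference of MNU over vehicle in wild type (horizontal axis) and in the knockout (vertical axis) for 37 of the 38 genes, as deposited, with ligands as circles, receptors as squares and grey bands for differences under 2-fold; the vertical scale is the shorter one. Most genes spread along the horizontal axis within the band of the vertical one, and Ccl8, Ccl9, Ccl6 and Cxcl13 lie at the lower right, higher with MNU in wild type and lower with MNU in the knockout.

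Between the MNU-treated mice, the family was mostly higher in the knockout. In KO-MNU 29 of the 38 genes (76.3%) were at least 2-fold higher than in WT-MNU, against 15.0% of all genes, and 6 (15.8%) were lower, against 7.37%. The median was 2.98 for the family and 0.0094 for all genes. This comparison shares WT-MNU with the one between the wild-type libraries, so that a low or high value there enters both. Cxcl14 was 3.59-fold and Ccl4 2.34-fold higher in KO-MNU than in WT-MNU, although both were within 2-fold between the wild-type libraries. Ccl12, higher in WT-MNU than in WT-vehicle, was within 2-fold here (log2 difference -0.76).

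Without MNU, the knockout thymus held more RNA of monocyte-attracting ligands and of the effector lymphocyte receptors Cxcr3 and Cxcr6, while the ligands and receptors of thymocyte traffic were near the wild-type level. In KO-vehicle 11 of the 38 genes (28.9%) were at least 2-fold higher than in WT-vehicle, where 2.59% of all genes were, and 0 were lower (0.359% of all genes). The 11 were Ccl2, Ccl4, Ccl6, Ccl8, Ccl9, Ccl11, Ccl12, Cxcl13, Cxcl14, Cxcr3 and Cxcr6. The median was 0.30, against -0.00060 for all genes. In KO-MNU, set against the same WT-vehicle library, 7 genes (18.4%) were higher (1.57% of all genes) and 0 were lower (1.11% of all genes), with a median of 0.38 for the family and 0.0019 for all genes. The 7 were Ccl4, Ccl8, Ccl12, Cxcl14, Cxcr3, Cxcr6 and Cx3cr1. Because both comparisons use WT-vehicle, a low value there would raise both.

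Cxcr6 was 3.06-fold higher in KO-MNU and 2.94-fold higher in KO-vehicle than in WT-vehicle. Cxcr3 was 3.16-fold higher in KO-MNU and 2.81-fold higher in KO-vehicle. Cx3cr1 was 2.41-fold higher in KO-MNU and 1.94-fold higher in KO-vehicle, just under the threshold there (log2 difference 0.94). The 3 receptor genes were lowest in WT-MNU, so that the rescaling within the subtraction made their KO-vehicle differences from WT-vehicle larger. They were then 3.46-fold for Cxcr6, 3.30-fold for Cxcr3 and 2.27-fold for Cx3cr1. The ligands of these receptors differed less: Cxcl16 was 1.45-fold and Cx3cl1 1.26-fold higher in KO-MNU than in WT-vehicle. Cxcl9, Cxcl10 and Cxcl11 were within 2-fold in both knockout libraries.

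Among the ligands, Ccl8 was 2.15-fold higher in KO-MNU and 4.91-fold higher in KO-vehicle than in WT-vehicle, and Ccl12 was 2.20-fold higher in KO-MNU and 3.33-fold higher in KO-vehicle. With the share subtracted the KO-vehicle differences from WT-vehicle were 4.20-fold for Ccl8, 3.25-fold for Ccl12 and 2.38-fold for Ccl2. Ccl11, the neighbour that was lower in WT-MNU, was 1.70-fold higher in KO-MNU and 2.15-fold higher in KO-vehicle. Cxcl14 was 2.76-fold higher in KO-MNU and 3.26-fold higher in KO-vehicle. Ccl4 was 5.22-fold higher in KO-MNU and 3.01-fold higher in KO-vehicle. By contrast Ccl9, Ccl6 and Cxcl13 were 1.03-fold, 1.36-fold and 1.82-fold the WT-vehicle level in KO-MNU, and with the share subtracted they were 1.17-fold, 1.67-fold and 1.66-fold that level in KO-vehicle, all within 2-fold.

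**Figure D4:**
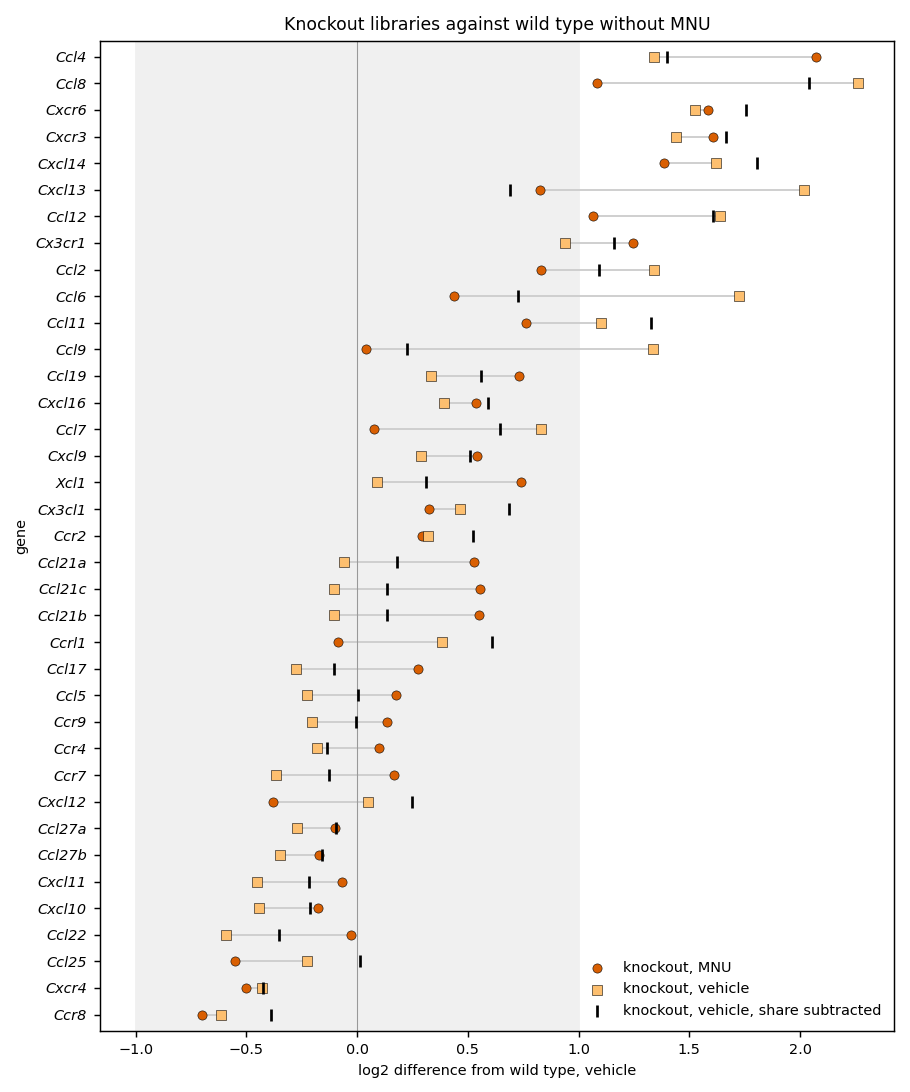
Log2 difference of KO-MNU (circles) and KO-vehicle (squares) from WT-vehicle for 37 of the 38 genes, ordered by the sum of both. Black ticks mark KO-vehicle after subtraction of 15.4% of the WT-MNU profile and rescaling, and the grey band marks differences under 2-fold. Cxcr6, Cxcr3 and Cxcl14 lie right of the band for all 3 marks, whereas Ccl9, Ccl6 and Cxcl13 lie right of it only for KO-vehicle as deposited.

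Markers of several cell types also differed between the knockout libraries and WT-vehicle. Neutrophil markers were higher for 5 of 5 genes in KO-MNU and for 1 of 5 in KO-vehicle (sums 2046 in KO-MNU and 596 in KO-vehicle, against 606 in WT-vehicle). Adipocyte markers were lower for 7 of 10 genes in KO-MNU, and in KO-vehicle 2 were higher and 2 lower (sums 18606 in KO-MNU and 54563 in KO-vehicle, against 53838 in WT-vehicle). The summed level of 5 NK cell markers was 4628 in KO-MNU and 4650.4 in KO-vehicle, against 2421 in WT-vehicle, with 2 of the 5 at least 2-fold higher in KO-MNU and 3 in KO-vehicle. For 11 macrophage markers the sums were 46776 in KO-MNU and 43762 in KO-vehicle, against 27108 in WT-vehicle, with 1 of the 11 higher and 1 lower in KO-MNU and 3 higher in KO-vehicle. B cell markers were higher for 8 of 8 genes in KO-MNU and for 1 of 8 in KO-vehicle (sums 9039 in KO-MNU and 5391 in KO-vehicle, against 3454 in WT-vehicle). The part of these cells in the receptor and ligand differences was not tested.

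The thymocyte traffic genes of both knockout libraries were close to WT-vehicle. Ccr9, Ccr7, Ccr4, Cxcl12, Ccl25 and the Ccl21 copies differed by less than 2-fold between each knockout library and WT-vehicle. Ccr8 had the lowest level relative to WT-vehicle of the 38 genes in both (log2 difference -0.70 in KO-MNU and -0.62 in KO-vehicle). It was followed by Ccl25 in KO-MNU (-0.55, against -0.23 in KO-vehicle) and by Ccl22 in KO-vehicle (-0.59, against -0.029 in KO-MNU). Ccr8 stayed below WT-vehicle after subtraction of the share (-0.39), whereas Ccl25 in KO-vehicle was then level with it (0.011).

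The signalling genes downstream of the receptors had a smaller median difference than the family itself. Of 35 measured genes for G proteins, phosphoinositide 3-kinase subunits, Rac activators, arrestins, receptor kinases and regulators, 9 (25.7%) were at least 2-fold lower in WT-MNU than in WT-vehicle, against 14.2% of all genes, and 1 (2.86%) was higher, against 7.14%. The median log2 difference of the list was -0.35. The differences of Rasgrp2, an activator of Rap1 in integrin adhesion, Plcb2, a phospholipase activated by G proteins, and Gnaq, a G protein alpha subunit, were -2.10, -2.09 and -1.91. Rasgrp2 had 3348 in KO-MNU, 2837 in KO-vehicle, 858 in WT-MNU and 3723 in WT-vehicle, with WT-MNU below the other 3 libraries. Gng2, a G protein gamma subunit and the 1 higher gene, named after its value was seen, had 1029 in KO-MNU, 1104 in KO-vehicle, 2085 in WT-MNU and 756 in WT-vehicle. In KO-MNU against KO-vehicle, and in either knockout library against WT-vehicle, 0 of the 35 were 2-fold higher or lower, where at most 2.95% of all genes were in any of these comparisons and directions.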

How the data were processed

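RNA was sequenced from thymus, 1 library per group, after a TruSeq library preparation, per the labels' protocols. Per the submitters' processing notes, TopHat2 2.0.8b, edgeR and the build mm9 are named, and their roles are not stated. The deposited signal was a table of normalised counts per gene, per the file headers. Its values were not whole, so no count model and no counting interval was used. For read counting and normalisation, the sources used here name no method.

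The authors' scaling was kept. Genes averaging under 10 were dropped, leaving 10587 of 10598, and differences were taken on log2(value + 10). The family members and gene lists were chosen with earlier results of these data known. Every family member reached 100 units in some library. All are counted, and 37 are given in all 4 libraries; 1 is not reported here. Of the genes in the other lists, at most the 3 with the largest difference are named, beside Gng2, the related genes Pf4, Mif and Cmklr1, and Foxn1 and Rag1 as checks of the tissue. Work was done in Python 3.11.15 with pandas 2.3.3, and the scripts were tested on simulated data. Promoter windows are from RefSeq (GRCm38.p6); no coordinates of mm9 are given. The alternatives were pseudocounts of 2.5 and 40, no filter and a filter at 100, median-of-ratios and upper-quartile scaling, a 4-fold threshold, subtraction of the WT-MNU share from KO-vehicle and, added after the data were examined, near-identical copies counted once.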

Additional observations from a re-analysis of the deposited data

Results flagged for a closer look

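4 ligand genes differed in opposite directions with MNU in the 2 genotypes, by at least 2-fold in each, as did 1.87% of all 10587 genes. The MNU difference in the knockout minus that in wild type was -4.92 for Ccl6, -4.62 for Ccl9, -4.28 for Ccl8 and -5.32 for Cxcl13 on the log2 scale. With 1 library per group these differences were not tested. In the knockout the log2 differences were -1.29 for Ccl6, -1.30 for Ccl9, -1.18 for Ccl8 and -1.19 for Cxcl13, and with the WT-MNU share subtracted from KO-vehicle they were -0.29, -0.18, -0.96 and 0.13. No gene of the family then differed in opposite directions by at least 2-fold in each genotype.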

How the results depend on the processing

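Subtraction of the WT-MNU share left 0 genes lower in KO-MNU than in KO-vehicle, against 4 as deposited. The family median of that comparison was then -0.0102, against 0.17, and the difference of Cxcl13 turned to 0.13. A 4-fold threshold left 0 genes lower in KO-MNU than in KO-vehicle, 2 higher in KO-vehicle than in WT-vehicle and 1 higher in KO-MNU than in WT-vehicle, by its construction. The other counts stayed within 1.5 times, and the other medians kept their direction and their side of 2-fold, under these and the remaining alternatives. Both scalings moved the median of all genes by less than 0.1. With a pseudocount of 2.5 Ccl4 passed 2-fold in WT-MNU against WT-vehicle (log2 difference 1.09), and with 40 it missed 2-fold in KO-vehicle against WT-vehicle (0.92) and in KO-MNU against WT-MNU (0.89), as did Ccl12 in KO-MNU against WT-vehicle (0.90) and, narrowly, Ccl2 in KO-vehicle against WT-vehicle (0.995), where 9 genes were then higher. With near-identical copies counted once, 23 of 35 genes were lower in WT-MNU than in WT-vehicle. No paired analysis was possible because each group holds 1 library. The depth in whole reads is unknown, and differences of genes near 100 units are the least certain.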

Other observations

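Chemokine-related genes outside the naming pattern of the family were measured in 3 cases. Pf4, the platelet chemokine also called Cxcl4, had 95.03 in KO-MNU, 269.8 in KO-vehicle, 951 in WT-MNU and 155 in WT-vehicle, so that it was 6.15-fold higher in WT-MNU than in WT-vehicle and lowest in KO-MNU. Mif, a cytokine that binds Cxcr4, had 3025 in KO-MNU, 3246 in KO-vehicle, 5146 in WT-MNU and 2824 in WT-vehicle, with WT-MNU the highest library and a difference under 2-fold. Cmklr1, the chemerin receptor of macrophages and dendritic cells, had 526 in KO-MNU, 808 in KO-vehicle, 375 in WT-MNU and 562 in WT-vehicle, within 2-fold between the wild-type libraries and highest in KO-vehicle.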
